A study of Bos taurus with 8 samples.

Results

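RNA-Seq of 8 cattle tissues yielded, beside the annotated transcripts, transcribed loci for which the table names no transcript. The loci described here are those without an identifier that span at least 300 bases and whose nearest locus with an Ensembl transcript identifier lies 0 to 5000 bases away on the same chromosome of the UMD3.1 assembly. There were 4319 such loci, which were 11.7% of the 36801 loci of the table and 36.2% of its 11915 unnamed loci. The rule used position and the absence of an identifier and no measured level. The tissues comprised 3 stomach and gut compartments (rumen, a forestomach, abomasum, the true stomach, and ileum), the reproductive and lactation organs (whole testes, intercaruncular uterus and mammary parenchyma), frontal cortex and nucleated blood cells, with no treatment named and 1 library each. The study's tissue collection came from the Hereford cow of the reference assembly and from relatives of that cow, as stated for its methylation assay, and the animals of the RNA-Seq libraries are not named in the labels. By the list of tissues for the same assay, the testes, uterus and blood cells were of adults, the rumen was fetal, and the mammary gland, cortex, abomasum and ileum were juvenile. Tissue, age, sex and animal therefore cannot be told apart, and no difference between libraries has a replicate check. Tissue labels were not checked against marker genes, because the table pairs no identifier with a gene symbol. All correlations below are over 8 tissues and are given as descriptions.

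Transcripts that start or end close to a known gene can arise in several ways. Many promoters are transcribed in both directions and give an upstream antisense transcript that shares its start region with the gene. Messenger RNAs can also extend past their annotated end through alternative polyadenylation, and first exons missing from an annotation appear as separate loci in front of it. Long non-coding RNAs lie near protein-coding genes as well, and neighbouring genes can share chromatin and regulatory elements. These are general properties of genomes and were not assigned to single loci here.

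Of the 4319 loci, 3351 lay 1 to 5000 bases from their neighbour, with a median distance of 1630 bases and quartiles of 430 and 2997 bases. By distance, 1293 lay within 1000 bases, 604 beyond that and up to 2000 bases, and 1454 between 2000 and 5000 bases. The other 968 overlapped their neighbour, and all 968 were listed with coordinates identical to those of the neighbour, so that the table gives a joint region and not their own position. The 3122 loci at 1 to 5000 bases that shared coordinates with no other locus had a median span of 834 bases. The order of the locus numbers ran through each chromosome in 3 passes, of which the first held 12700 identified loci, the second 12186 and the last 0. The passes were read as plus strand, minus strand and no strand, an inference from the numbering, since the table has no strand column and the library kit marks none. On this reading 3329 of the loci (77.1%) had no strand, as the assembler leaves transcripts without a splice junction, and are called unspliced below. The remaining 990 are called spliced. Among unnamed loci farther than 5000 bases the unspliced share was 63.1%. The 4319 loci had 3089 different neighbours, and 805 neighbours had more than 1 of them, up to 10.

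Relative to the identified loci of the same chromosome, the loci were fewest on chromosome X, with 9.73 per 100 identified loci, and most frequent on chromosome 24, with 31.6. The median of the 30 chromosomes was 17.5 per 100. Chromosome 15 was also low, with 11.7 per 100.

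Levels were deposited as FPKM, the number of fragments scaled to transcript length and to mapped fragments. Whole read numbers could be recovered for the 2444 unspliced loci with coordinates of their own, and all of their values under 100 reads came out whole in the 8 libraries. A single read corresponded to 0.750 to 1.93 FPKM on 300 bases and to 0.0882 to 0.227 FPKM on 1000 bases, with the scaled depth lowest in mammary gland (5588000 reads) and highest in rumen (14369000 reads). In its highest library such a locus had a median of 20 reads, with quartiles of 13 and 49. The range was wide, since 343 loci had at least 100 reads in a library while 155 stayed under 10 in every library. Of 7116 values at an FPKM of at least 1, 750 (10.5%) rested on at most 3 reads. Counts at the threshold are therefore less certain for short loci, and least certain in mammary gland.

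At a threshold of 1 FPKM the unnamed loci near identified ones were detected in fewer tissues than identified loci and in more than unnamed loci farther away. In whole testes 2098 loci (48.6%) reached 1 FPKM, against 58.2% of identified and 60.8% of farther unnamed loci. Frontal cortex had 1895 (43.9%), against 51.7% and 29.7%. In uterus 1678 loci (38.9%) were detected and in abomasum 1624 (37.6%). Ileum had 1474 (34.1%), mammary gland 1456 (33.7%) and nucleated blood cells 1415 (32.8%). Rumen, the deepest library, had the fewest, 1301 (30.1%), against 48.4% of identified and 16.8% of farther loci. The share was thus below that of identified loci in every library and above that of farther loci in every library except whole testes.

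**Figure D1:**
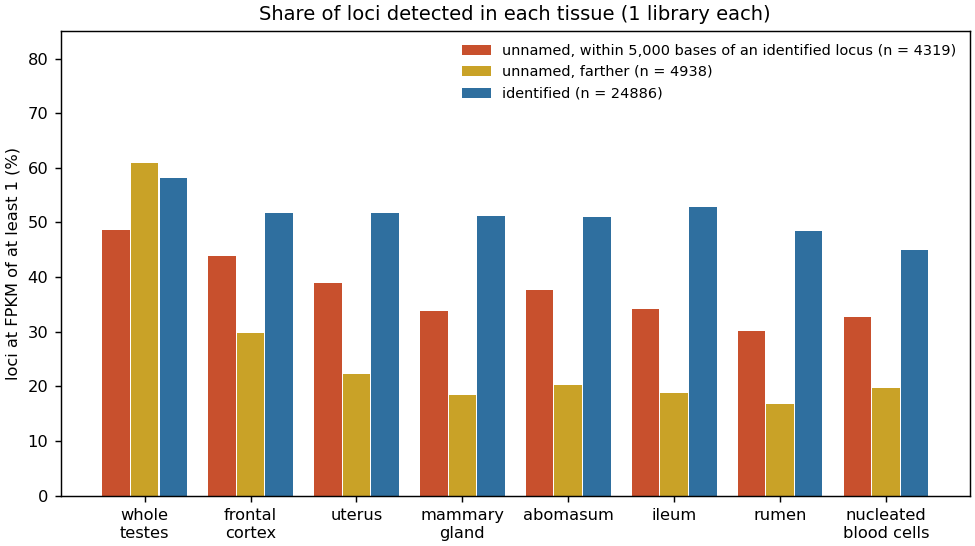
Percentage of loci with an FPKM of at least 1 in each of 8 tissues (x axis, 1 library each) for unnamed loci within 5000 bases of an identified locus, farther unnamed loci and identified loci. In whole testes the 3 bars stand at 48.6%, 60.8% and 58.2%, and in rumen at 30.1%, 16.8% and 48.4%.

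By breadth, 1597 loci (37.0%) reached 1 FPKM in exactly 1 tissue, and for 764 of these (47.8%) it was whole testes. Detection in all 8 tissues was found for 348 loci (8.06%). The same shares were 9.98% and 35.8% among identified loci and 63.0% and 3.97% among farther unnamed loci. Only 43 loci stayed below 1 FPKM throughout. In numbers, 735 loci were detected in 2 tissues, 530 in 3, 400 in 4, 280 in 5, 202 in 6 and 184 in 7.

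Levels where detected were low. The median FPKM of detected loci was highest in whole testes (5.82, quartiles 2.77 and 11.7) and lowest in uterus (2.44, quartiles 1.56 and 4.59). Set against the neighbour in the same library, where both reached 1 FPKM, the median ratio ran from 0.209 in uterus to 0.349 in frontal cortex. A level above that of the neighbour was found for 17.1% of such pairs in uterus and for 26.9% in whole testes. When pairs whose neighbour was below 1 FPKM were included, the share ran from 26.3% in uterus to 33.4% in frontal cortex, with 31.8% in whole testes. FPKM is scaled to length, so these ratios compare levels per base, and for spliced loci and joint regions they rest on a length that the table does not give.

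Enrichment in a tissue required an FPKM of 1 or more there and a value of FPKM + 1 that exceeded the second highest tissue 5-fold or more. Of the 4319 loci, 1186 (27.5%) were enriched in a tissue, beside 23.4% of all loci of the table, 12.1% of identified loci and 50.2% of farther unnamed loci. Whole testes, in which spermatogenesis transcribes a large part of the genome, held 678 of them (15.7%, against 12.7% of all loci). Frontal cortex followed with 188 (4.35%, against 2.79% of all loci) and abomasum with 153 (3.54%, against 3.69%). In rumen 80 loci were enriched (1.85%, against 1.96%) and in nucleated blood cells 61 (1.41%, against 1.18%). Uterus had 15 (0.347%, against 0.402%), ileum 7 (0.162%, against 0.408%) and mammary gland 4 (0.0926%, against 0.22%). Shares in abomasum, rumen, uterus and blood cells were thus close to the background of all loci, and identified loci alone were enriched in abomasum in 0.386% of cases.

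Enriched loci listed at 0 in the 7 other tissues were 415 of 678 (61.2%) in whole testes and 43 of 80 (53.8%) in rumen. They were 73 of 153 (47.7%) in abomasum, 64 of 188 (34.0%) in frontal cortex and 19 of 61 (31.1%) in blood cells. Uterus had 7 of 15, ileum 4 of 7 and mammary gland 4 of 4. The same share was not computed for other loci, so it is not read as a trait of these. The small counts of enriched loci depended on single libraries and on the pseudocount. Leaving out abomasum moved the count for ileum from 7 to 18 and leaving out blood cells moved it to 14, while the count for blood cells was 95 without ileum, and that for mammary gland was 8 without abomasum or without rumen. With a pseudocount of 0.1 in place of 1, the count was 323 in frontal cortex, 128 in blood cells and 82 in uterus.

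Neighbours of enriched loci were often highest in the same tissue. For whole testes this held for 303 of 591 pairs (51.3%), where 30.8% of all identified loci at 1 FPKM or more in a tissue were highest in whole testes. The same values were 112 of 165 pairs (67.9%, beside 16.0% of identified loci) for frontal cortex and 59 of 75 (78.7%, beside 12.1%) for rumen. They were 38 of 58 (65.5%, beside 15.1%) for blood cells and 65 of 147 (44.2%, beside 9.16%) for abomasum. It held for 10 of 15 pairs in uterus (beside 7.46% of identified loci), for 3 of 6 in ileum (4.60%) and for all 4 in mammary gland (4.77%). The neighbour was itself enriched in that tissue in 145 of the 591 pairs for whole testes, where 6.61% of identified loci were enriched, and in 47 of 165 for frontal cortex (2.41%). This held in 32 of 75 pairs for rumen (0.763% of identified loci), 23 of 147 for abomasum (0.386%) and 14 of 58 for blood cells (0.932%). The r of an enriched locus is set mainly by the level of the neighbour in the library of enrichment, so the medians are given beside those with a drawn gene that has the highest tissue of the neighbour, and no order of tissues is read from them. They were 0.544 for whole testes (0.470 with the drawn gene), 0.831 for frontal cortex (0.629), 0.437 for abomasum (0.218), 0.844 for rumen (0.580) and 0.724 for blood cells (0.571). Uterus, ileum and mammary gland had 15, 6 and 4 pairs, too few to describe by a median.

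The levels of 7 loci and their neighbours are given in full. They are the enriched unspliced loci with the most reads in their tissue, a choice made once the values had been seen, and mammary gland had none.

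In frontal cortex this was chr15:66571030-66578440, which spans 7411 bases and lies 1400 bases downstream of ENSBTAT00000016762. It had 16016 reads there (95% Poisson interval 15769 to 16266), or 259 FPKM. Its other FPKM values were 0.471 in abomasum, 0.398 in mammary gland, 0.180 in ileum, 0.175 in whole testes, 0.0966 in rumen, 0.0445 in uterus and 0 in blood cells. The neighbour was also highest in frontal cortex, at 2.43 FPKM, with 0.154 in abomasum, 0.137 in whole testes, 0.0661 in uterus and 0 in the other 4 libraries (r = 0.991). The unnamed locus stood far above its neighbour in frontal cortex, and with every other value of both loci below 0.5 FPKM this r rests on 1 library.

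In abomasum the locus was chr27:36244899-36245630, 3191 bases upstream of ENSBTAT00000047361. It had 1252 reads in abomasum (interval 1184 to 1323), or 194 FPKM, and was listed at 0 in the 7 other libraries. The neighbour showed the same form, with 113 FPKM in abomasum and 0 elsewhere (r = 1). With 7 zeros in both loci this r rests on 1 library.

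The ileum locus, chr13:67832991-67833511, lay 1653 bases upstream of its neighbour and had 128 reads in ileum (interval 107 to 152). Its FPKM was 59.5 in ileum, 7.25 in blood cells, 2.61 in abomasum, 0.678 in whole testes and 0 in the other 4 libraries. The neighbour had 489 FPKM in ileum, 33.8 in blood cells, 19.7 in whole testes, 2.76 in abomasum, 1.24 in mammary gland, 0.455 in uterus, 0.248 in frontal cortex and 0 in rumen (r = 0.927). Both loci were highest in ileum and second in blood cells.

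In rumen, chr24:26380096-26386591 lay 724 bases downstream of its neighbour and had 4178 reads (interval 4052 to 4307). Its FPKM was 46.3 in rumen, 3.11 in abomasum, 0.641 in ileum, 0.628 in uterus, 0.171 in mammary gland, 0.111 in frontal cortex, about as low in blood cells and 0 in whole testes. The neighbour had 339 FPKM in rumen, 34.8 in abomasum, 13.3 in uterus, 10.9 in ileum, 9.50 in mammary gland, 0.897 in frontal cortex, 0.630 in blood cells and 0.241 in whole testes (r = 0.902). Both loci were highest in rumen and second in abomasum, and low in cortex, blood and testes.

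The locus of nucleated blood cells, chr9:42864442-42868583, lay 3086 bases downstream of its neighbour and had 1212 reads (interval 1145 to 1282). Its FPKM was 27.7 in blood cells, 3.77 in ileum, 2.64 in mammary gland, 1.60 in abomasum, 0.133 in whole testes, 0.106 in rumen, 0.0815 in uterus and, lowest of all, 0.0591 in frontal cortex. The neighbour had 51.1 FPKM in blood cells, 20.7 in ileum, 18.2 in whole testes, 8.49 in mammary gland, 7.05 in abomasum, 0.676 in rumen, 0.271 in uterus and again least, 0.212, in frontal cortex (r = 0.784). The order of tissues was shared except for whole testes, where only the neighbour was high.

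The whole testes locus, chr17:64500239-64501592, lay 3115 bases downstream of a neighbour present in every library. It had 909 reads in whole testes (interval 851 to 970), or 83.5 FPKM, and 0.353 to 1.93 FPKM in the other libraries. Its neighbour had 33.7 FPKM in whole testes and 6.91 to 17.7 elsewhere (r = 0.739). Both were highest in whole testes, but the neighbour was within 5-fold of its level there in every library.

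The uterus locus, chr4:77705726-77706467, was in another order. It lay 217 bases upstream of ENSBTAT00000016813 and had 67 reads in uterus (interval 51.9 to 85.1), or 13.5 FPKM, and 0 in the 7 other libraries. The neighbour was highest in frontal cortex (191 FPKM) and second in uterus (84.1 FPKM), with at most 0.862 FPKM elsewhere (r = 0.569). The upstream locus was thus detected in only 1 of the 2 libraries in which the neighbour was high.

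**Figure D2:**
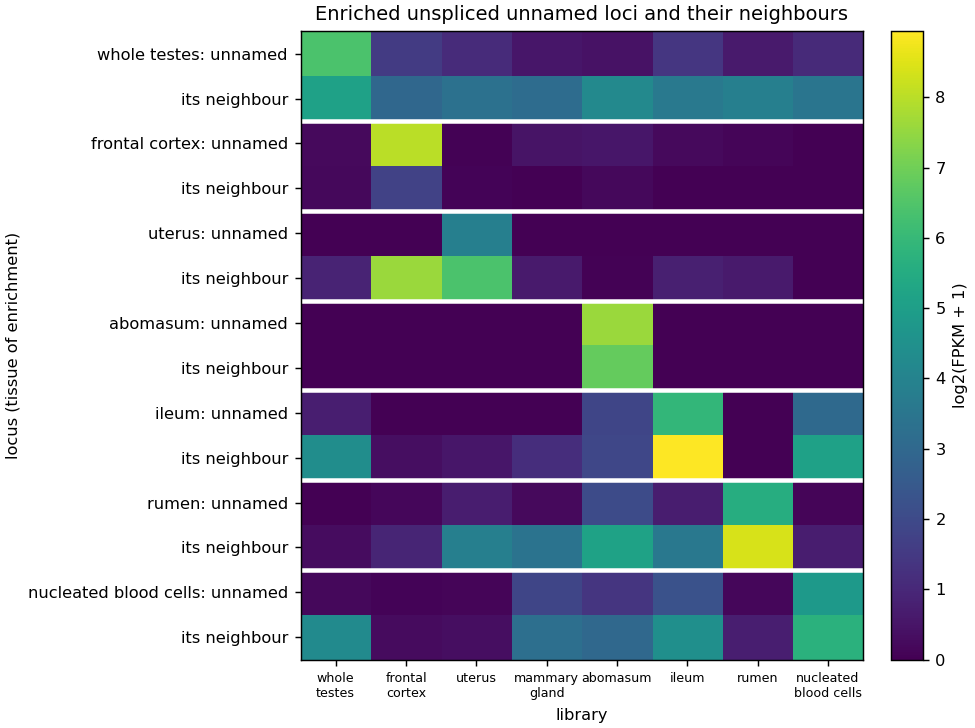
Levels as log2(FPKM + 1) (colour) in 8 libraries (x axis) for 7 enriched unspliced unnamed loci, each above its nearest identified locus (y axis, named by tissue of enrichment). In 6 of the 7 pairs the brightest cell of both rows is in the same library, and the uterus pair differs because its neighbour is brightest in frontal cortex.

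The rule for naming loci also took the 2 with the highest ratio to the next tissue in each tissue. Of these 16 loci, 13 were at 0 in the 7 other tissues and 13 were spliced or joint regions, for which read numbers are unknown. Mammary gland was represented by loci at chr20:70181986-70184013 and chr20:70185187-70185887, with 27.8 and 13.2 FPKM in mammary gland and 0 elsewhere. Both lay upstream of ENSBTAT00000063219 on the opposite strand, at 3665 and 1791 bases. That neighbour had 53.0 FPKM in mammary gland and at most 0.456 in any other library (r = 0.995). With the unnamed loci at 0 in the 7 other libraries and the neighbour shared, this is a single value that rests on 1 library. A spliced locus at chr24:62359548-62360416 had 34.5 FPKM in rumen and 0 elsewhere, and its neighbour, 4285 bases away on the same strand, had 688 FPKM in rumen and at most 1.98 elsewhere (r = 0.986, also resting on 1 library). The highest value of all was 6826 FPKM in whole testes, at a spliced locus listed in the joint region chr28:42369338-42510977, whose neighbour had 50.3 FPKM there and at most 0.0707 elsewhere. An abomasum locus at chr23:30699276-30700491 had 5626 FPKM and 0 elsewhere, while its neighbour was below 1 FPKM in every library and at 0 in abomasum. The reads behind these high values of spliced loci are not known.

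Other loci taken by the same rule did not follow their neighbour. At chr17:56537226-56537642 a spliced locus had 565 FPKM in whole testes and 0 elsewhere, while its neighbour had 12.2 FPKM in whole testes, its lowest value, and up to 17.6 in rumen (r = -0.73). The blood locus chr4:104708486-104712440 had 63.1 FPKM in blood cells and 0 elsewhere, and its neighbour was lowest there, at 1.06 FPKM, and highest in whole testes, at 14.6 (r = -0.70). Both ileum loci lay in joint regions, with 90.9 FPKM (r = -0.19) and 18.6 FPKM (r = -0.11), and their neighbours were highest in frontal cortex (17.9 FPKM) and whole testes (44.1 FPKM). A rumen locus at chr8:69605403-69650463 had 41.7 FPKM in rumen, and its neighbour was listed at 0 in all 8 libraries, so that no r was computed. The second locus of abomasum, at chr22:44184790-44187600 with 465 FPKM, and the first of blood cells, at chr22:59686551-59687511 with 123 FPKM, were at 0 elsewhere beside neighbours present in every library (r = 0.533 and 0.501). The remaining pairs were chr5:56228071-56229008 in frontal cortex, with 284 FPKM from 1774 reads (r = 0.971), and a spliced locus of uterus in the joint region chr13:63268405-63305522, with 18.2 FPKM (r = 0.902).

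The correlation with the nearest identified locus was computed on log2(FPKM + 1) for the 3909 pairs in which both loci reached 1 FPKM in at least 1 tissue. The median r was 0.488, with quartiles of 0.0651 and 0.814. With a gene drawn at random from another chromosome the median r was -0.042, and over all identified loci of other chromosomes it was -0.066. An r of at least 0.8 was reached by 1033 pairs (26.4%), and by 5.81% of the pairs with a drawn gene. The background for this call was 23.6% for unnamed loci of at least 300 bases at any distance, a group that includes these pairs. For farther unnamed loci alone it was 20.4%, and 9.47% with a drawn gene. For identified loci with another identified locus at 1 to 5000 bases it was 10.3%. A negative r was found in 877 pairs (22.4%) and in 53.3% of pairs with a drawn gene. The r with the neighbour exceeded that with the drawn gene in 73.2% of cases, and the neighbour stood at a median percentile of 82.7 among all identified loci of other chromosomes.

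Loci with the same highest tissue tend to correlate wherever they lie, so the highest tissue was compared separately. The highest tissue was shared with the neighbour in 1667 pairs (42.6%) and with the drawn gene in 17.1%. When the drawn gene was required to have the same highest tissue as the neighbour, its median r with the unnamed locus was 0.306, below the 0.488 with the neighbour itself, and 12.4% of pairs reached 0.8. By tissue, the highest tissue was shared by 55.0% of loci that were highest in blood cells (14.5% with a drawn gene), 48.0% in whole testes (29.2%), 45.8% in rumen (12.3%), 40.9% in frontal cortex (17.0%) and 37.3% in uterus (6.07%). Abomasum had 31.3% (9.79%), mammary gland 29.7% (4.69%) and ileum 25.2% (5.41%). The share was above that with the drawn gene in all 8 tissues.

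Pairs were also divided by breadth and by read number. In 644 pairs whose unnamed locus was at 0 in 7 tissues the median r was 0.698, and in 878 pairs whose unnamed locus was above 0 in all 8 it was 0.324. With a drawn gene of the neighbour's highest tissue the medians of these classes were 0.557 and 0.160. With a gene drawn without that condition they were -0.061 and -0.036. The contrast was thus present with a distant gene matched to the neighbour's highest tissue and absent with an unmatched one. An r with a single value above 0 depends only on the level of the neighbour in that library. For unspliced loci the median r was 0.416 with 1 to 9 reads in the highest library, 0.450 with 10 to 19, 0.504 with 20 to 49, 0.504 with 50 to 99 and 0.663 with at least 100. The 287 pairs of the last class, in which counting error is smallest, thus had the highest median. The median was 0.485 for unspliced and 0.504 for spliced loci.

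A second comparison used the identified locus on the other side of the same unnamed locus. Such a locus reached 1 FPKM in at least 1 tissue for 2312 unnamed loci, at a median of 17934 bases. For these the median r was 0.156 with the other side and 0.485 with the nearest, and the nearest was higher for 1471 (63.6%). For the 435 of these loci with both sides within 5000 bases the medians were 0.287 and 0.360, and the nearest was higher for 229 (52.6%). Where both lay within 5000 bases, at median distances of 670 and 2831 bases, the nearer locus was therefore above the other about as often as below it.

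**Figure D3:**
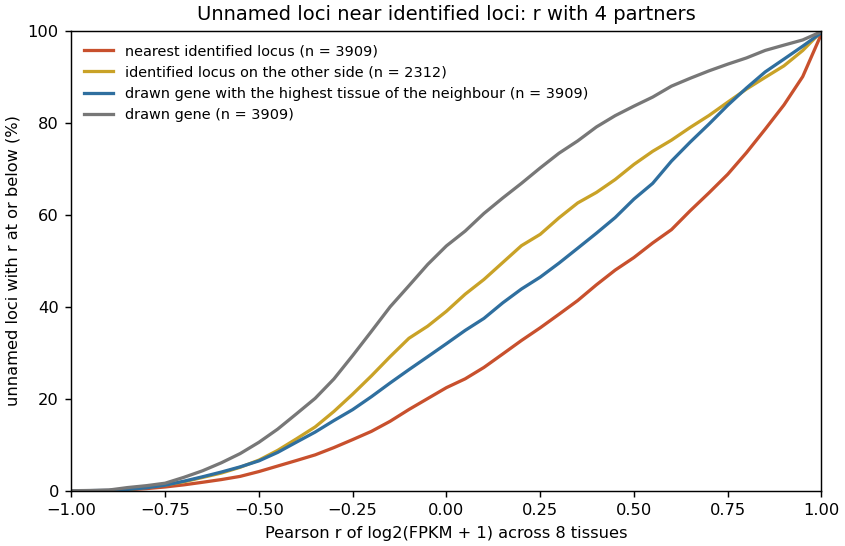
Cumulative percentage (y axis) of unnamed loci with an r across 8 tissues (x axis) at or below a value, for 4 partners: the nearest identified locus, the identified locus on the other side, a drawn gene with the highest tissue of the neighbour, and a drawn gene. At r = 0 the curves stand at 22.4%, 39.1%, 32.0% and 53.3%.

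Within 5000 bases the median r changed little with distance. It was 0.452 for loci in a joint region with their neighbour, 0.518 within 1000 bases, 0.437 from there to 2000 bases and 0.491 between 2000 and 5000 bases. For unnamed loci beyond the limit it was 0.409 up to 10000 bases, 0.255 from there to 50000 bases and 0.172 above 50000. With a drawn gene the median stayed between -0.064 and 0.014 in every class. The limit itself marked no step, since the median was 0.437 for 321 pairs between 4000 and 5000 bases and 0.521 for 256 pairs between 5000 and 6000 bases. All farther loci together had a median of 0.257, and pairs of identified loci at 1 to 5000 bases had one of 0.220.

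**Figure D4:**
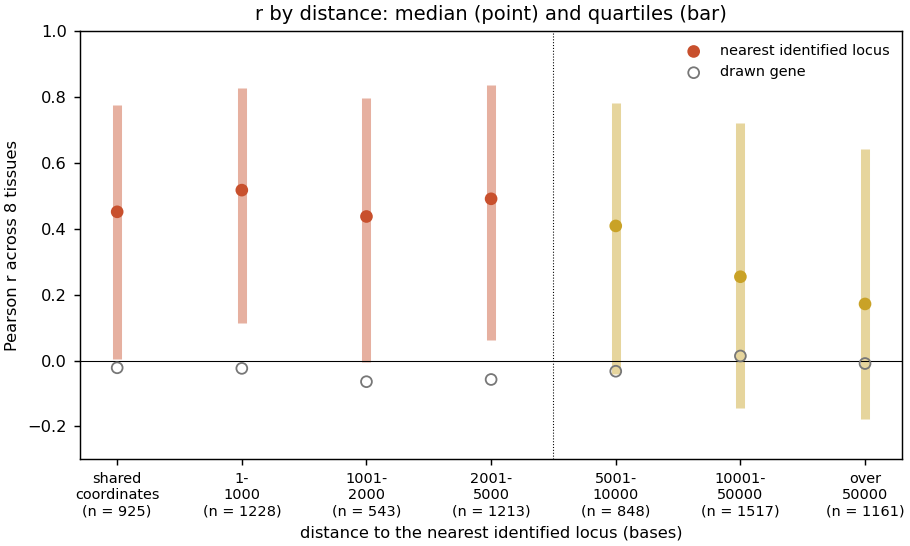
Median (points) and quartiles (bars) of r across 8 tissues by distance to the nearest identified locus in bases, with the median for a drawn gene as open circles; the dotted line marks 5000 bases. The median lies between 0.437 and 0.518 up to the line and at 0.172 above 50000 bases.

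Just inside the limit, the unspliced locus chr15:44488038-44488956 lay 4998 bases from its neighbour, and its FPKM ran from 0.506 in mammary gland to 3.92 in uterus (r = 0.375), with 2 and 26 reads and at most 35 in a library. The locus chr9:105645214-105645645, at 4991 bases, had 4.75 FPKM in whole testes from 10 reads (r = 0.123). Just outside, chr5:106059328-106059653 at 5004 bases had 6.23 FPKM in abomasum from 9 reads, and chr25:8549018-8549533 at 5007 bases had 4.58 FPKM in frontal cortex from 12 reads. All 4 were unspliced.

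Orientation relative to the neighbour was read from the inferred strands for the 3351 loci at 1 to 5000 bases. Spliced loci upstream on the opposite strand, with the transcript starts facing, numbered 316. They lay closest, at a median of 542 bases and with 192 (60.8%) within 1000 bases. Their median r was the highest of the 6 classes (0.594, quartiles 0.0911 and 0.844). Its 95% interval over loci (0.513 to 0.655) overlapped that of every other class except unspliced upstream loci (0.413 to 0.494). Spliced loci downstream on the opposite strand, with the transcript ends facing, numbered 159. They had a median distance of 1833 bases, 33.3% within 1000 bases, and the lowest median r (0.303, quartiles 0.0275 and 0.798). The upstream median was above the downstream one for neighbours of the first numbering pass (0.546 against 0.280) and of the second (0.612 against 0.314). The rank among the 6 classes did not hold in the second pass, where unspliced downstream loci (0.635) and spliced upstream loci on the strand of the neighbour (0.613) had higher medians. Pairs of identified loci in the same arrangements had medians of 0.369 with heads facing and 0.182 with tails facing.

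Spliced loci on the strand of the neighbour had a median r of 0.508 upstream (154 loci) and 0.478 downstream (166 loci). Pairs of identified loci on 1 strand had a median of 0.179. The unspliced loci were divided into 1175 upstream and 1381 downstream of the neighbour. Upstream ones lay closer, with 49.4% within 1000 bases against 23.8%, but the median r was higher downstream (0.548 against 0.453), and an r of at least 0.8 was reached by 30.4% downstream and 24.0% upstream. For neighbours of the first pass the medians were 0.485 downstream and 0.452 upstream, and for those of the second 0.635 and 0.458.

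**Figure D5:**
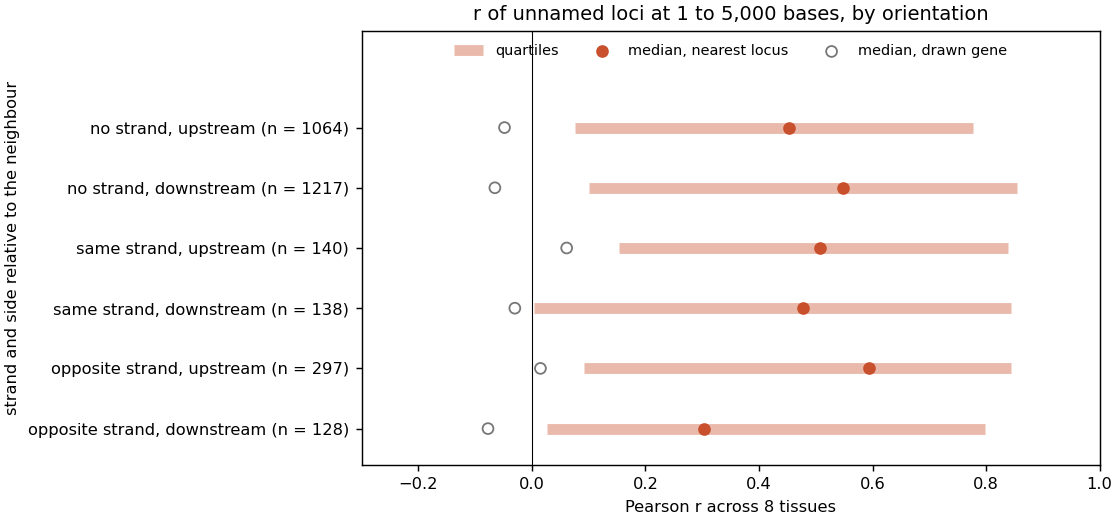
Median (filled points) and quartiles (bars) of r across 8 tissues (x axis) for unnamed loci at 1 to 5000 bases, by inferred strand and side relative to the neighbour (y axis); open circles give the median with a drawn gene. The median is highest for the opposite strand upstream (0.594) and lowest for the opposite strand downstream (0.303).

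By distance, the downstream unspliced loci did not thin out evenly. In successive steps of 1000 bases from the neighbour there were 328, 225, 381, 265 and 182 of them. Upstream the numbers were 581, 234, 133, 125 and 102, falling with each step away from the neighbour. The downstream median r was 0.538, 0.581, 0.573, 0.617 and 0.440 in these classes, and the upstream one 0.485, 0.397, 0.423, 0.416 and 0.437. In all 5 classes the downstream median was the higher, by least in the last. Relative to the neighbour, the highest FPKM of the downstream loci had a median ratio of 0.179 to 0.305 and that of the upstream loci one of 0.146 to 0.197.

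Unnamed loci with the same neighbour were also set against each other. For the 501 neighbours with several of them at 1 to 5000 bases (1178 loci), the median r between their loci was taken. Over neighbours this value had a median of 0.783, with quartiles of 0.384 and 0.948. Loci of different neighbours were not compared in this way, so the value has no background. Such loci can be pieces of 1 transcript and are not independent of each other.

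The 4 loci with the highest lowest level were all spliced, and they were abundant in every library. The locus chr5:57527720-57529336 had 2318 FPKM in rumen, 918 in blood cells, 890 in mammary gland, 823 in ileum, 730 in abomasum, 707 in uterus, 457 in frontal cortex and 433 in whole testes. Its neighbour, 318 bases away on the same strand, had only 2.90 to 13.7 FPKM (r = -0.11). The locus in the joint region chr22:51991996-52003804 had 144 FPKM in mammary gland to 465 in frontal cortex, against 7.08 to 60.3 for the neighbour (r = 0.530). At chr7:45580226-45584550, 497 bases upstream of a neighbour on the opposite strand, levels ran from 58.7 in uterus to 190 in whole testes, beside 25.2 to 104 FPKM for the neighbour (r = 0.612). At chr7:45205141-45207497 they ran from 57.8 in blood cells to 1164 in whole testes, while its neighbour was highest in blood cells, at 122 FPKM (r = -0.59). In 2 of these 4 pairs the unnamed locus stood above its neighbour in all 8 libraries, and in the other 2 pairs in all libraries but 1.

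The 3 lowest correlations were taken among the 908 pairs in which the unnamed locus was enriched and both loci reached 5 FPKM. All 3 were of loci enriched in whole testes, beside identified loci that were lower there than in most other libraries. The unspliced locus chr22:59846450-59846930 had 8.56 FPKM in whole testes from 22 reads (interval 13.8 to 33.3), 0.396 in uterus from 1 read and 0 elsewhere. Its neighbour, 4588 bases away, was lowest in whole testes (77.4 FPKM) and had 156 to 286 FPKM in the other libraries (r = -0.90). In the joint region chr8:70831760-71212773 an unspliced locus had 124 FPKM in whole testes and a spliced one was likewise highest there, and an identified locus of the same region had 2.09 FPKM there and up to 26.7 in ileum (r = -0.83 and -0.82). At the other end, pairs tied at r = 1, as the abomasum pair above, and the 3 of them that the rule took by order of position were of loci and neighbours both listed at 0 in all libraries except whole testes, such as chr16:51279691-51280056 with 7.86 FPKM beside 126 FPKM for its neighbour.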

How the data were processed

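RNA-Seq libraries of 8 cattle tissues, 1 per tissue, were made from total RNA with the TruSeq RNA Library Prep Kit v2. The authors filtered the reads, aligned them to UMD3.1 with TopHat2 (version 2.0.13, from the submitters' processing notes) and ran Cufflinks with default parameters. The deposited values are FPKM per locus and library, made by the authors and scaled between libraries by their software. The table also holds log2 fold changes, test statistics, p-values and q-values of the authors for pairs of tissues, which were not used. Each of the 36801 loci had the same FPKM in every pair.

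Positions were converted to 1-based. Distance was the gap between the closest ends, and 116 unnamed loci without an identified locus on their sequence were left out. Pearson r used log2(FPKM + 1) over 8 tissues, for pairs with both loci at 1 FPKM or more in at least 1 tissue. Read numbers were recovered for unspliced loci with coordinates of their own, with a fragment length of 200 bases (SD 80, limits 87 and 440) and a tolerance of 0.03 for a whole read. The depth is scaled by the authors' software. The reads carry no molecular identifiers, and Poisson intervals cover counting error only. A value of 0 allows up to 3 reads, or 0.265 to 0.681 FPKM on 1000 bases. No test was run, because each tissue had 1 library.

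Loci were named by rule: per tissue the 2 with the highest ratio of FPKM + 1 to the next tissue among those of at least 5 FPKM, the 4 with the highest lowest level, the 3 highest and 3 lowest r among enriched pairs of at least 5 FPKM, and 2 on each side of 5000 bases. Members and lists were chosen with earlier results of these data known. Sequences, gene symbols and marker genes are not analysed here. Scripts were tested on simulated data and used numpy 2.4.6, pandas 2.3.3, scipy 1.17.1 and matplotlib 3.10.9. Alternatives covered thresholds, pseudocount, filters, distance, span, Spearman's rho, the drawn gene and each tissue left out.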

Additional observations from a re-analysis of the deposited data

How the results depend on the processing

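The median r of 0.488 with the nearest identified locus was positive under all 19 alternatives, and 14 of them left it inside its 95% interval of 0.462 to 0.513, which is taken over loci as if they were independent. It was 0.436 with Spearman's rho, 0.380 for loci at 1 FPKM or more in at least 3 tissues, and 0.541 for unspliced loci with at least 20 reads (chosen after seeing the data). Leaving out each tissue in turn gave 0.477 to 0.540, the highest without whole testes. The median with the drawn gene was -0.042, or -0.066 over all identified loci of other chromosomes. It was 0.306 with a drawn gene of the neighbour's highest tissue and 0.268 over all identified loci of that kind (the last chosen after seeing the data). The share of pairs with the same highest tissue was 42.6%, 45.3% without whole testes and 44.8% for loci at 5 FPKM or more.

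Counts of detected loci fall with any stricter rule by construction. Raising the threshold to 5 FPKM left 1164 loci for whole testes, 731 for cortex, 381 for uterus, 365 for mammary gland, 681 for abomasum, 369 for ileum, 489 for rumen and 545 for blood. At 0 to 1000 bases, joint regions included, the counts were 1184, 897, 894, 751, 889, 769, 691 and 754 in that order of tissues. At spans of at least 1000 bases they were 1299 for whole testes, 1216 for cortex and 921 for blood.

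Enriched loci by a fold of 2 numbered 1071 for whole testes, 523 for cortex, 126 for uterus, 24 for mammary gland, 364 for abomasum, 36 for ileum, 197 for rumen and 275 for blood. A fold of 10 left 339, 51, 4, 3, 62, 4, 30 and 15 in that order. The pseudocount of 0.1 gave 323 for cortex, 82 for uterus, 9 for mammary gland, 18 for ileum and 128 for blood. Unspliced loci with at least 10 reads (chosen after seeing the data) numbered 246 for whole testes, 127 for cortex, 2 for uterus, 0 for mammary gland, 52 for abomasum, 5 for ileum, 39 for rumen and 24 for blood. Without the floor of 10 reads, enriched loci with read numbers were 246, 127, 3, 0, 52, 5, 39 and 24 in that order. These counts are thus lower mainly because spliced loci and joint regions, which have no read numbers, are left out. Leaving out each other tissue gave 689 to 741 for whole testes, 193 to 222 for cortex, 15 to 19 for uterus, 4 to 8 for mammary gland, 157 to 182 for abomasum, 7 to 18 for ileum, 83 to 91 for rumen and 64 to 95 for blood. The causes of these shifts were not tested beyond what each rule removes.

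No paired analysis was possible because single libraries per tissue allowed no test. Depth limits short loci most, since 1 read on 300 bases reaches 0.750 to 1.93 FPKM.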
